A study of Mus musculus with 75 samples.

Results

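The genes described here are 45 mouse genes known to be imprinted that lie outside the Dlk1-Dio3 domain. They were taken by name from textbook knowledge of imprinting, not from the values measured here, and they fall into 20 imprinted domains. By the copy most often reported as expressed, 22 were counted as paternal and 19 as maternal, and Gnas, Grb10, Ddc and Inpp5f were counted with neither. Others also depend on tissue or isoform. For example, Ube3a is maternal in neurons, Igf2 is expressed from both copies in choroid plexus and meninges, and Blcap and H13 depend on isoform. Below, paternally or maternally expressed refers to this count, which may not hold in brain for every gene. The symbols were matched to identifiers of the deposited count files. All 45 were listed in the hippocampus files, which hold 55487 gene identifiers. The cortex and nuclei files, with 37310 identifiers, listed 42. Snrpn, Kcnq1ot1 and Peg13 were matched in the hippocampus files alone and were not analysed in cortex or nuclei.

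Imprinted genes carry DNA methylation that is laid down in the egg or the sperm at control regions and kept through development, so that the copies inherited from mother and father are expressed unequally. DNMT3A is a DNA methyltransferase that, with its partner DNMT3L, sets these marks in germ cells. The gene makes a long isoform, DNMT3A1, with a disordered N-terminal part, and a short isoform, DNMT3A2, that starts downstream of it and is known from germ cells and embryonic stem cells. DNMT3A1 is the main isoform of the postnatal brain, where many imprinted genes act in growth, feeding and behaviour. None of the values below separates the parental copies, because reads of both copies were counted together.

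RNA was sequenced from C57BL/6 mice at postnatal day 21. Cerebral cortex was taken from Dnmt3a1-/- mice, which lack the long isoform (3 libraries), from Dnmt3a1_delta_N mice, named for a deletion in the N-terminal part of DNMT3A1 (3 libraries), and from Dnmt3a2-/- mice, which lack the short isoform (2 libraries). The 8 wild type cortex libraries carry plain numbers (3 libraries), numbers with n (3 libraries) or numbers with r (2 libraries) in their titles. They were set against Dnmt3a1-/-, Dnmt3a1_delta_N and Dnmt3a2-/- in that order, although the labels do not tie them to a mutant. Hippocampus was taken from Dnmt3a1-/- and wild type mice (3 libraries each), and NeuN-sorted nuclei of cortical neurons were labelled Dnmt3a1-/- or wild type (2 libraries each). The labels name no Cre driver or cell type for the mutations. The labels do not say that libraries come from separate animals, so p-values measure the spread between these libraries, which may be technical.

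The 26 libraries held 8.7 to 39.0 M gene counts (M, mega). Dnmt3a, summed over isoforms, stood at 73.2, 80.7 and 74.0 counts per M (CPM) in Dnmt3a1-/- cortex, against 152, 165 and 146 CPM in its wild type, and at 71.5, 76.1 and 72.3 CPM in Dnmt3a1-/- hippocampus, against 162, 149 and 134 CPM in wild type. The nuclei labelled Dnmt3a1-/- held 382 and 369 CPM and wild type nuclei 405 and 399 CPM, a log2 fold change of -0.10 ± 0.15 where cortex had -1.02 ± 0.07, so the Dnmt3a level did not follow that label. Dnmt3a1_delta_N cortex held 135, 139 and 139 CPM and its wild type 147, 162 and 163 CPM. Dnmt3a2-/- cortex held 132 and 144 CPM and its wild type 153 and 145 CPM. A sum over isoforms checks these last labels little. Prox1, a gene of hippocampal granule neurons, was at 79.9 to 103 CPM in hippocampus and at 3.71 to 5.64 CPM in cortex. The summed CPM of 12 choroid plexus markers was 837 to 2040 in Dnmt3a1-/- cortex and 128 to 765 in its wild type, and all 12 had counts in each of these libraries. None of the 12 passed the test and their median log2 fold change was 1.01. Some markers of other cells also differed there. The sum of 8 markers of dividing cells was 10.5 to 12.2 CPM in Dnmt3a1-/- cortex and 18.6 to 19.9 CPM in its wild type, with 2 of 8 lower, and that of 8 endothelial markers 730 to 817 CPM in Dnmt3a1-/- and 840 to 980 CPM in wild type, with 3 of 8 lower. Of 8 markers each, 3 of excitatory neurons were lower, 3 of astrocytes higher and 1 lower, and 2 of oligodendrocytes higher. Of inhibitory neuron markers 1 of 8 was lower, and of meningeal fibroblast markers 2 of 11. None of 8 microglial, 8 striatal or 5 blood markers passed. Among all genes tested in this comparison 17.9% passed, and a share such as 2 of 8 (25%) is near that. The part of cell makeup in the results below was not tested. In hippocampus the choroid plexus sum was 562, 1890 and 63.1 CPM in Dnmt3a1-/- and 84.2, 114 and 94.4 CPM in wild type. In bulk tissue, fewer cells of a type and less RNA per cell cannot be told apart.

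In Dnmt3a1-/- cortex 13 of the 39 imprinted genes tested changed at an adjusted p under 0.05, 9 of them higher and 4 lower than in wild type. Among all 15933 genes tested 17.9% changed (8.95% higher, 8.91% lower), while the share of the imprinted genes was 33.3%. The libraries of the genotypes did not overlap for 21 of the 39, or 53.8%, beside 36.1% of all genes. The median log2 fold change of the imprinted genes was 0.07, beside 0.01 for all genes. Of 19 paternally expressed genes 6 rose and 3 fell, and of 16 maternally expressed genes 2 rose and 1 fell. Calcr, H19 and Phlda2 were too low to be tested. The called genes came from 10 domains. Folds are given on the log2 scale with their standard error (SE), from edgeR's quasi-likelihood test with Benjamini-Hochberg adjustment over all genes tested.

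**Figure D1:**
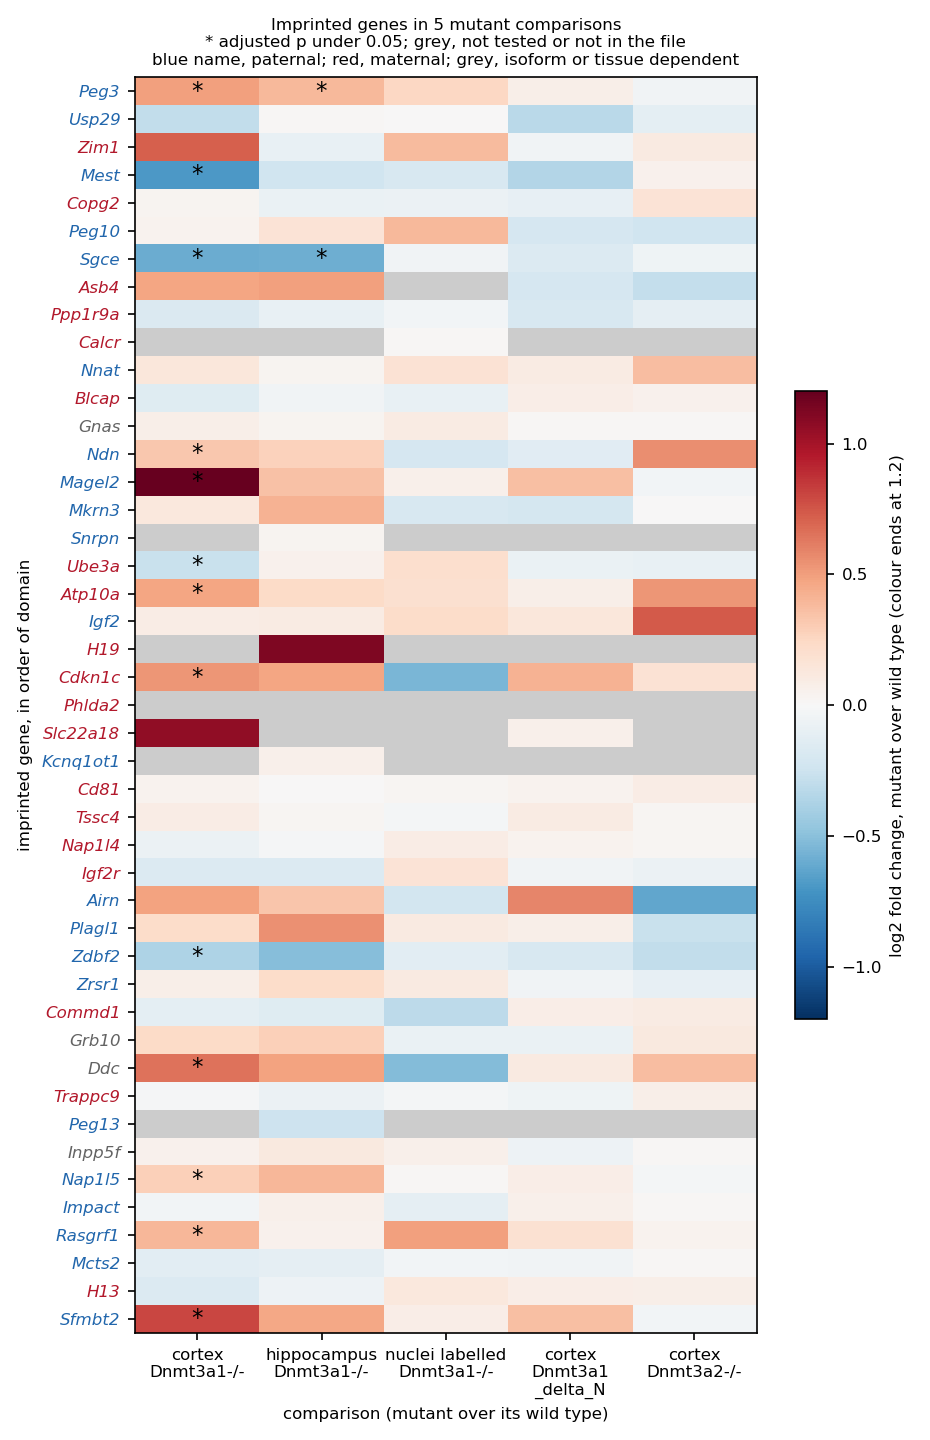
Log2 fold changes (colour) of the 45 imprinted genes (rows, by domain) in 5 comparisons of a mutant with its wild type (columns); stars mark an adjusted p under 0.05 and grey cells genes not tested or not listed. Stars stand on 13 genes in Dnmt3a1-/- cortex, on Peg3 and Sgce in hippocampus and on none in the other columns.

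The Peg3 domain showed its paternally expressed zinc finger gene raised in both tissues. Peg3, which encodes a DNA-binding protein known for roles in growth and maternal behaviour, stood at 226, 231 and 228 CPM in Dnmt3a1-/- cortex against 152, 174 and 160 CPM in wild type cortex. The 3 mutant libraries lay close together and above all 8 wild type cortex libraries, which spanned 142 to 183 CPM. The log2 fold change was 0.49 ± 0.07 (SE, n = 3 each; edgeR adjusted p = 0.00062). In hippocampus Peg3 held 287, 283 and 273 CPM in Dnmt3a1-/- and 189, 233 and 212 CPM in wild type, a log2 fold change of 0.39 ± 0.09 (edgeR adjusted p = 0.043). This hippocampal call was lost when any single library was left out, as given below. The groups did not overlap in either tissue.

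Usp29, a paternally expressed gene of the ubiquitin protease family, shares the promoter region of Peg3 and is read in the opposite direction. It did not pass the test in cortex, at 4.43, 4.99 and 5.88 CPM in Dnmt3a1-/- and 5.19, 6.11 and 8.04 CPM in wild type (log2 fold change -0.30 ± 0.18, edgeR adjusted p = 0.25), nor in hippocampus (0.01 ± 0.11). Peg3 counts were 51.1, 46.2 and 38.8 times the Usp29 counts of the same library in Dnmt3a1-/- cortex, against 29.2, 28.5 and 19.9 times in wild type. In hippocampus the ratios were 13.5, 15.9 and 13.7 in Dnmt3a1-/- and 11, 11.6 and 10.5 in wild type. The mutant ratios were above the wild type ratios in both tissues, and by a two-sided exact permutation test p was 0.1 in each, the smallest that 3 against 3 libraries allow (0.25 adjusted over the 15 ratio tests made). The ratios were also above wild type in Dnmt3a1_delta_N cortex, at 38.7, 35 and 40.8 against 28.6, 29.6 and 29.6 (two-sided exact permutation p = 0.1). The nuclei labelled Dnmt3a1-/- had ratios of 204 and 176, against 162 and 157 in wild type nuclei. Dnmt3a2-/- cortex overlapped with its wild type, at 25 and 24.3 against 21.6 and 24.9. Zim1, the maternally expressed zinc finger gene of the domain, held 1.53, 1.45 and 0.834 CPM in Dnmt3a1-/- cortex and 0.532, 0.783 and 0.956 CPM in wild type (log2 fold change 0.72 ± 0.31, edgeR adjusted p = 0.13).

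RefSeq promoter windows, 250 bases before to 50 after each transcript start on build GRCm38.p6, were found for 37 of the 45 genes, 56 windows in all. This build is not the one the reads were counted on. The windows of Peg3 and Usp29 overlap by 263 bases on opposite strands. The Peg3 window, chr7:6730370-6730669 on the minus strand, is shown because Peg3 changed in both tissues. Capitals mark TGACGTCA, the cAMP response element, which was looked for after the sequence had been read.
Peg3: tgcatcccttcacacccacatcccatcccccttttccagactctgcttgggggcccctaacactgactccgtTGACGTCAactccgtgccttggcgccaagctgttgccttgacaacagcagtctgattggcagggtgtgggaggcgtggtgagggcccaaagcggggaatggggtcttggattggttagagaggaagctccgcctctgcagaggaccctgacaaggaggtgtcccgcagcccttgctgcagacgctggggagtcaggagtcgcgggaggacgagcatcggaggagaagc
The element lies in the stretch that Peg3 and Usp29 share, reads the same on both strands, and is in 1.79% of all 32841 promoter windows. The window holds 13 CpG sites, beside a median of 7 over all windows. Of the 56 windows 3 hold the element: those of Peg3 and Usp29, and the downstream start of Zdbf2.

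The Sgce and Peg10 domain, the other one that changed in both tissues, showed a fall of 1 of 2 paternally expressed neighbours. Sgce encodes epsilon-sarcoglycan, a membrane protein known from the movement disorder myoclonus-dystonia. It stood at 21.8, 21.6 and 20.9 CPM in Dnmt3a1-/- cortex against 31.4, 30.2 and 35.3 CPM in wild type, below all 8 wild type cortex libraries (28.2 to 35.3 CPM). Its log2 fold change was -0.60 ± 0.09 (SE, n = 3 each; edgeR adjusted p = 0.00072). In hippocampus Sgce held 22.1, 16.2 and 17 CPM in Dnmt3a1-/- and 24.4, 28.3 and 28.5 CPM in wild type, a log2 fold change of -0.59 ± 0.12 (edgeR adjusted p = 0.022). This hippocampal call also depended on single libraries, as given below. The groups did not overlap in either tissue.

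Peg10, a gene derived from a retrotransposon and needed in the placenta, starts next to Sgce on the other strand. It held 20.4, 22.5 and 20.1 CPM in Dnmt3a1-/- cortex and 19.9, 19.6 and 22.0 CPM in wild type, and the groups overlapped (log2 fold change 0.04 ± 0.09, edgeR adjusted p = 0.82). In hippocampus it held 23.1, 20 and 12 CPM in Dnmt3a1-/- and 13, 16.8 and 17.1 CPM in wild type (0.16 ± 0.20, adjusted p = 0.73). The ratio of Sgce to Peg10 counts within a library was 1.07, 0.961 and 1.04 in Dnmt3a1-/- cortex and 1.58, 1.54 and 1.60 in wild type, a difference of -0.62 in mean log2 ratio. In hippocampus it was 0.954, 0.812 and 1.42 in Dnmt3a1-/- and 1.88, 1.69 and 1.67 in wild type, a difference of -0.75. The ratio did not overlap between genotypes in either tissue (two-sided exact permutation p = 0.1 in each, the smallest possible). It overlapped in Dnmt3a1_delta_N cortex (difference 0.06, permutation p = 0.8) and in the nuclei labelled Dnmt3a1-/- (-0.52, permutation p = 0.667). In Dnmt3a2-/- cortex the difference had the opposite sign (0.19, permutation p = 0.333). Of the maternally expressed neighbours, the actin-binding neurabin gene Ppp1r9a held 216, 229 and 272 CPM in Dnmt3a1-/- cortex and 250, 261 and 294 CPM in wild type (log2 fold change -0.17 ± 0.10, edgeR adjusted p = 0.25; 0.0068 with libraries of the same number paired). Asb4, a gene of a ubiquitin ligase adaptor, held 1.70 to 2.35 CPM in Dnmt3a1-/- cortex and 1.27 to 1.64 CPM in wild type without passing (0.47 ± 0.21, adjusted p = 0.15). Calcr, the calcitonin receptor gene, was below the level of testing, at 0.255, 1.45 and 0.0379 CPM in Dnmt3a1-/- cortex and at 0, 0 and 0.169 CPM in wild type, so that 1 mutant library held most of its counts.

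**Figure D2:**
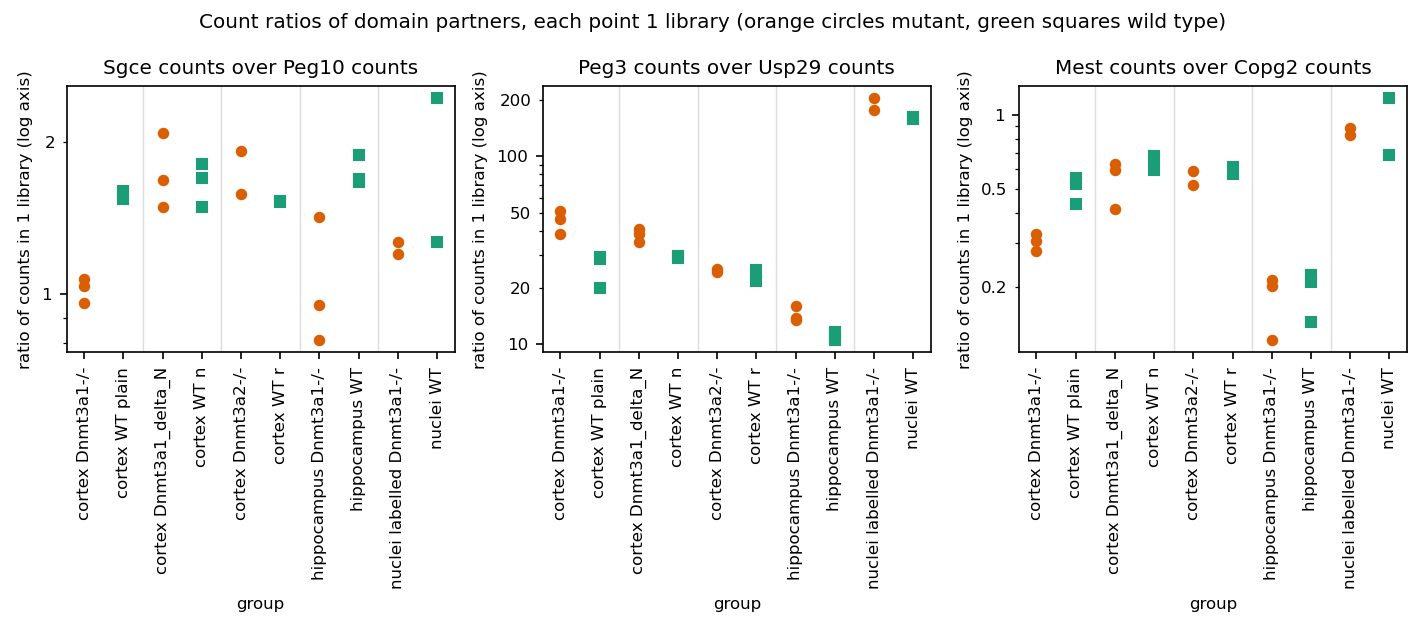
Ratio of counts of domain partners within each of the 26 libraries (log axis; orange circles mutant, green squares wild type; columns are groups, each mutant left of its wild type). The 3 Dnmt3a1-/- cortex libraries lie at 0.961 to 1.07 for Sgce over Peg10, at 38.8 to 51.1 for Peg3 over Usp29 and at 0.28 to 0.326 for Mest over Copg2, each apart from their wild type.

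Mest, a paternally expressed gene of the alpha/beta hydrolase fold family, had the largest fall of the imprinted genes tested in Dnmt3a1-/- cortex. Its libraries read 19.2, 18.8 and 16.6 CPM in Dnmt3a1-/- cortex and 26.5, 30.3 and 31.0 CPM in wild type, with the other 5 wild type cortex libraries reaching 38.5 CPM. The log2 fold change was -0.69 ± 0.09 (SE, n = 3 each; edgeR adjusted p = 0.00048). In hippocampus the groups overlapped, at 14.5, 12.9 and 7.66 CPM in Dnmt3a1-/- and 9.45, 14.1 and 15.6 CPM in wild type (log2 fold change -0.24 ± 0.23, adjusted p = 0.63). The difference between the tissues was 0.44 ± 0.26 and did not pass (adjusted p = 0.98). Copg2, the neighbour that encodes a subunit of the COPI vesicle coat, held 62.7, 57.6 and 59.3 CPM in Dnmt3a1-/- cortex and 61.1, 54.7 and 59.5 CPM in wild type (0.03 ± 0.07). The ratio of Mest to Copg2 counts was 0.307, 0.326 and 0.280 in Dnmt3a1-/- cortex against 0.434, 0.555 and 0.521 in wild type, a difference of -0.72 in mean log2 ratio (two-sided exact permutation p = 0.1, the smallest possible). In hippocampus the ratios overlapped (difference -0.12, permutation p = 0.6). They also overlapped in Dnmt3a1_delta_N cortex (-0.25), in Dnmt3a2-/- cortex (-0.10) and in the nuclei labelled Dnmt3a1-/- (-0.06).

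The Prader-Willi and Angelman domain on chromosome 7 held 4 of the 13 called genes. Magel2, a paternally expressed gene of the MAGE family that acts in endosomal protein recycling, stood at 4.26, 4 and 1.71 CPM in Dnmt3a1-/- cortex and 1.10, 1.04 and 1.69 CPM in wild type. Its log2 fold change was 1.35 ± 0.35 (edgeR adjusted p = 0.024), and the third mutant library lay just above the highest wild type library. The summed CPM of 12 hypothalamus and midbrain markers was 14, 11.9 and 5.8 in these mutant libraries and 6.83, 6 and 6.13 in wild type. The order was that of Magel2 in the mutant libraries but not in wild type. Only 3 of the 12 markers could be tested and none passed. The part of such tissue in the Magel2 level was not tested. Ndn, which encodes necdin, another MAGE protein of postmitotic neurons, held 99.4, 96.3 and 76.6 CPM in Dnmt3a1-/- and 75.0, 70.4 and 71.0 CPM in wild type (0.32 ± 0.09, adjusted p = 0.020). The 8 wild type cortex libraries together spanned 70.4 to 151 CPM, and against all of them the log2 fold change of Ndn was -0.04 (adjusted p = 0.92). Mkrn3, a ubiquitin ligase gene known as a brake on puberty, held 3.24, 2.40 and 3.03 CPM in Dnmt3a1-/- and 2.58, 2.53 and 2.70 CPM in wild type and did not pass (0.13 ± 0.18).

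Ube3a, the maternally expressed ubiquitin ligase gene of Angelman syndrome, held 41.2, 34.6 and 41.9 CPM in Dnmt3a1-/- cortex and 48.1, 45.7 and 47.9 CPM in the plain-numbered wild type. Its log2 fold change was -0.27 ± 0.08 (edgeR adjusted p = 0.035), and against all 8 wild type libraries, at 35.8 to 48.1 CPM, it was -0.10 (adjusted p = 0.56). Atp10a, which encodes a lipid flippase, held 43.5, 48.7 and 50 CPM in Dnmt3a1-/- and 31.6, 31.8 and 40.0 CPM in wild type (0.47 ± 0.10, adjusted p = 0.0086), with no wild type cortex library above 40.0 CPM. Several of these calls hung on single libraries. Magel2 lost its call without plain-numbered wild type library 1 or 2 or mutant library 1 or 2 (log2 fold change 1.10 to 1.25, adjusted p 0.058 to 0.11). Ndn lost it without wild type library 2 or 3 or mutant library 1 or 2 (0.26 to 0.32, adjusted p 0.058 to 0.096), and Ube3a without the same 4 libraries (-0.30 to -0.19, adjusted p 0.053 to 0.11).

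In the Kcnq1 and Igf2 domains on chromosome 7, Cdkn1c rose. Cdkn1c, the maternally expressed gene of the cell cycle inhibitor p57, stood at 12.1, 9.79 and 10.3 CPM in Dnmt3a1-/- cortex against 8.10, 7.23 and 6.58 CPM in wild type (log2 fold change 0.53 ± 0.12, edgeR adjusted p = 0.0095). Without the mutant library highest and the wild type library lowest in choroid plexus markers, the log2 fold change was 0.40 and no longer passed (adjusted p = 0.11). The same omission ended the calls of Zdbf2 (log2 fold change -0.38, edgeR adjusted p = 0.084), Ube3a (-0.28, 0.14), Nap1l5 (0.25, 0.14) and Ndn (0.26, 0.15). It left 8 imprinted genes called. The omission also leaves fewer libraries in each group, which by itself weakens the test. Leaving out wild type library 2 alone or mutant library 2 alone left 8 called as well. The part of choroid plexus RNA in these differences was not tested. Slc22a18, a maternally expressed transporter gene, held 0.681, 1.11 and 0.759 CPM in Dnmt3a1-/- and 0.573, 0.410 and 0.225 CPM in wild type. Its groups did not overlap and its log2 fold change of 1.06 ± 0.35 just missed the threshold (adjusted p = 0.052; 0.021 with libraries of the same number paired). The values rest on few reads, with counts of 8, 29 and 20 in Dnmt3a1-/- and 14, 11 and 4 in wild type. The tetraspanin gene Cd81, Tssc4 and the histone chaperone gene Nap1l4, all maternally expressed, differed by -0.07 to 0.09 on the log2 scale and did not pass. Nap1l4 alone of these had groups without overlap, at 79.9, 81.2 and 81.1 CPM in Dnmt3a1-/- and 85.6, 82.3 and 85.1 CPM in wild type. Phlda2 had no count in any Dnmt3a1-/- or wild type cortex library.

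Igf2, the paternally expressed fetal growth factor gene, held 121, 107 and 108 CPM in Dnmt3a1-/- cortex and 135, 111 and 68.3 CPM in wild type, and did not pass (log2 fold change 0.09 ± 0.25, edgeR adjusted p = 0.85). Its spread was wide among wild type libraries of cortex, with 45.8 CPM as the lowest and 135 CPM as the highest. In the 3 plain-numbered wild type libraries the summed CPM of 11 meningeal fibroblast markers was 224, 168 and 112, in the same order as Igf2, and in the r-numbered libraries the sums were 53.5 and 84.6 beside 45.8 and 53.5 CPM of Igf2. The order also held in Dnmt3a1_delta_N and Dnmt3a2-/- cortex, but not in 2 of the groups: the sums were 135, 126 and 139 CPM in Dnmt3a1-/- cortex beside 121, 107 and 108 CPM of Igf2, and 112, 120 and 110 CPM in the n-numbered libraries beside 54.1, 89.4 and 72.5 CPM. All 11 markers had counts in each cortex library, and their part in the Igf2 level was not tested. H19, the maternally expressed non-coding RNA gene beside Igf2, was too low to be tested in cortex, at 0.511, 0.152 and 0.0759 CPM in Dnmt3a1-/- and 0.205, 0.224 and 0.169 CPM in wild type.

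Among domains of 1 or 2 genes, Sfmbt2, Rasgrf1, Nap1l5 and Ddc rose and Zdbf2 fell in Dnmt3a1-/- cortex. Sfmbt2, a paternally expressed Polycomb group gene, held 5.45, 4.15 and 5.73 CPM in Dnmt3a1-/- cortex and 2.99, 2.80 and 2.92 CPM in wild type (log2 fold change 0.80 ± 0.17, edgeR adjusted p = 0.0055). Its 8 wild type cortex libraries reached no more than 3.08 CPM. Rasgrf1, a paternally expressed exchange factor gene for Ras in neurons, held 155, 185 and 177 CPM in Dnmt3a1-/- and 112, 139 and 141 CPM in wild type (0.40 ± 0.10, adjusted p = 0.018). Without mutant library 2 or 3 it lost its call (0.33 and 0.36, adjusted p = 0.095 and 0.063).

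Ddc, the gene of the decarboxylase that makes dopamine and serotonin, is imprinted in the heart and shares a domain with Grb10. It held 16.8, 27.8 and 22.9 CPM in Dnmt3a1-/- cortex and 14.2, 13.9 and 15.6 CPM in wild type (log2 fold change 0.65 ± 0.16, edgeR adjusted p = 0.018). The call was lost without wild type library 1 or 2 or mutant library 3 (0.61 to 0.63, adjusted p 0.061 to 0.075). Grb10, an adaptor gene of insulin signalling that is paternally expressed in neurons and maternally in most other tissues, held 35.3, 41.1 and 36.2 CPM in Dnmt3a1-/- and 32.8, 32.2 and 31.0 CPM in wild type. Its groups did not overlap, its log2 fold change was 0.23 ± 0.08 and its adjusted p was 0.058, or 0.013 with libraries of the same number paired.

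Nap1l5, a paternally expressed gene of the nucleosome assembly protein family nested in an intron of Herc3, held 138, 124 and 136 CPM in Dnmt3a1-/- cortex and 111, 109 and 104 CPM in its wild type (log2 fold change 0.29 ± 0.07, edgeR adjusted p = 0.011). The r-numbered wild type libraries stood higher than any mutant library, at 170 and 189 CPM, and against all 8 wild type libraries the log2 fold change was 0.01 (adjusted p = 0.96). Zdbf2, a paternally expressed zinc finger gene, held 15.6, 13.8 and 11.9 CPM in Dnmt3a1-/- and 16.2, 17.4 and 19.1 CPM in wild type (-0.37 ± 0.11, adjusted p = 0.035). It lost its call without wild type library 2 or 3 or mutant library 2 or 3 (-0.39 to -0.29, adjusted p 0.074 to 0.13), but no wild type cortex library was below 16.2 CPM. In hippocampus Nap1l5 held 100, 92.9 and 105 CPM in Dnmt3a1-/- and 64.3, 71.5 and 86.6 CPM in wild type, with no overlap and an adjusted p of 0.073 (0.40 ± 0.11).

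Of the 13 called genes 11 have a RefSeq promoter window, all but Sgce and Cdkn1c, and those of Nap1l5, Mest and Zdbf2 hold TGCCGC, the hexamer read by the imprint protein ZFP57 when it is methylated. Their windows are shown with the hexamer in capitals on either strand, where GCGGCA is its reverse complement. The windows shown lie at chr6:58907077-58907376 on the minus strand, chr6:30737800-30738099 on the plus strand and chr1:63200108-63200407 on the plus strand of GRCm38.p6.
Nap1l5: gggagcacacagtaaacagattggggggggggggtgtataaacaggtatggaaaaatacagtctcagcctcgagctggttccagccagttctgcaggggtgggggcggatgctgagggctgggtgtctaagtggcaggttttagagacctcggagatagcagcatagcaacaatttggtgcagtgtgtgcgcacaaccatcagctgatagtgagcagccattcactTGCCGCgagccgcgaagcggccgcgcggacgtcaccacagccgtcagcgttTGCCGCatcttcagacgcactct
Mest: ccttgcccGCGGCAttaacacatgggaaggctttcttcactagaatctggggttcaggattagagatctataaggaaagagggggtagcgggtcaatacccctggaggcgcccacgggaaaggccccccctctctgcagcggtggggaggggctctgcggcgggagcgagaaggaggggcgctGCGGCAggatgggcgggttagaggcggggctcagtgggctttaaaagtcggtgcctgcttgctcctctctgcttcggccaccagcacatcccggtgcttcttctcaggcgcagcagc
Zdbf2: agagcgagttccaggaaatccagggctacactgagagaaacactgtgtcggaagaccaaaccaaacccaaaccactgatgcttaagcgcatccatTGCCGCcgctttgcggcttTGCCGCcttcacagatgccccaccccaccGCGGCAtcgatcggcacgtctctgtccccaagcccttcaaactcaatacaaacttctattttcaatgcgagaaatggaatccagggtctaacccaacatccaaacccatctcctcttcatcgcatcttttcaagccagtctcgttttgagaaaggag
Of these 3 genes Nap1l5 was higher, and Mest and Zdbf2 were lower, in Dnmt3a1-/- cortex. The upstream Mest window, at chr6:30733256-30733555, and the downstream Zdbf2 window, at chr1:63273019-63273318, do not hold the hexamer. Windows of Commd1, Copg2, Grb10, Igf2, Mcts2, Nnat, Plagl1 and Zim1, which did not pass there, hold the hexamer too. So do windows of Calcr and Snrpn, which were not tested there. A part of the hexamer in the changes was not tested.

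Over all imprinted genes, 14 of the 56 windows held TGCCGC (25%), beside 11.6% of all promoter windows. The 14 include overlapping windows of Mest. TGCCGC holds a CpG site, and the share was not adjusted for CpG content. The Nap1l5, Mest and Zdbf2 windows shown hold 17, 17 and 15 CpG sites, beside a median of 7 over all windows. GCCATNTT, the motif of the factor YY1, was in 3 of the 56 (5.36%) and in 6.05% of all windows. Windows of 1 gene can overlap, so they are not independent, and no methylation or binding was analysed at them here.

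**Figure D3:**
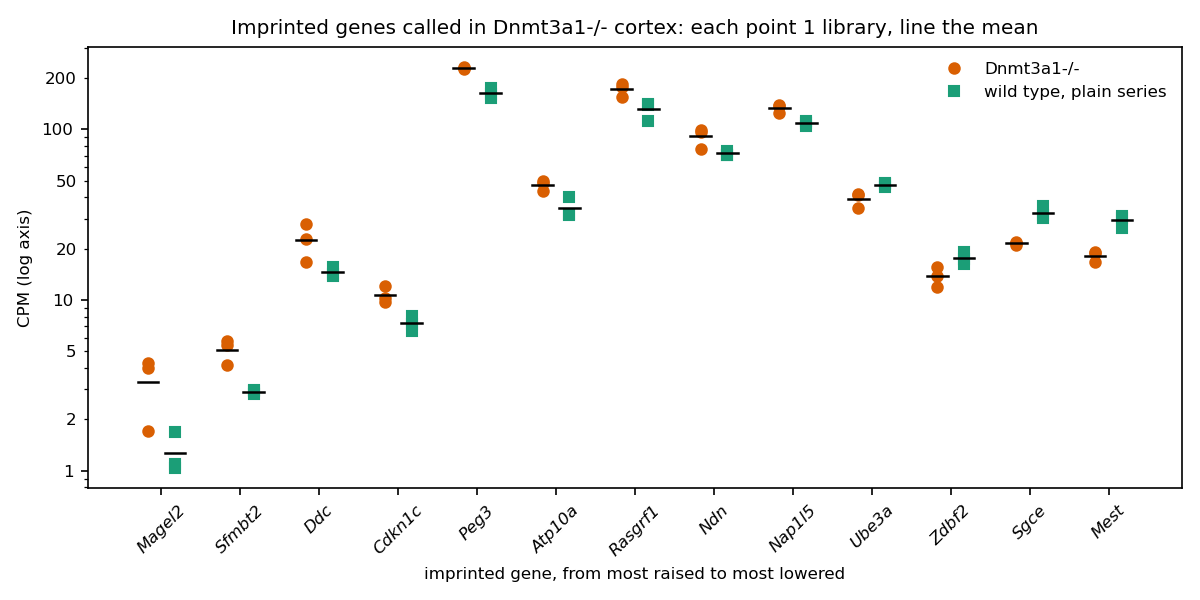
CPM (log axis) of the 13 imprinted genes called in Dnmt3a1-/- cortex; each point is 1 library, orange circles Dnmt3a1-/- (left) and green squares plain-numbered wild type (right), and lines are means. The groups do not overlap for any of the 13 genes, with Magel2 closest, at 1.71 CPM for the lowest mutant and 1.69 CPM for the highest wild type library.

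The remaining imprinted genes did not pass in Dnmt3a1-/- cortex. Nnat, a paternally expressed proteolipid gene nested in the maternally expressed Blcap, differed by 0.14 ± 0.18, and Blcap by -0.15 ± 0.07 on the log2 scale, with 48.1, 50.3 and 45.5 CPM in Dnmt3a1-/- and 51.2, 52.3 and 55.5 CPM in wild type. Gnas, the gene of the stimulatory G protein subunit, stood at 1190, 1170 and 1110 CPM in Dnmt3a1-/- and 1090, 1080 and 1110 CPM in wild type (0.07 ± 0.06). Igf2r, the maternally expressed receptor that clears IGF2, held 33.8, 33.4 and 32.0 CPM in Dnmt3a1-/- and 35.9, 37.9 and 36.6 CPM in wild type without passing (-0.16 ± 0.07, edgeR adjusted p = 0.14). Airn, the paternally expressed RNA that silences Igf2r, held 0.851, 0.915 and 1.02 CPM in Dnmt3a1-/- and 0.614, 0.894 and 0.45 CPM in wild type (0.48 ± 0.30, adjusted p = 0.29). The zinc finger gene Plagl1 differed by 0.22 ± 0.11, the splicing factor gene Zrsr1 by 0.07 ± 0.07 and its host Commd1 by -0.12 ± 0.10. Zrsr1 did not overlap, at 30.1, 29.5 and 29.4 CPM in Dnmt3a1-/- and 29.3, 28.3 and 26.9 CPM in wild type. Trappc9, Inpp5f, Impact and the retrogene Mcts2 differed by -0.13 to 0.05. H13, a signal peptide peptidase gene and host of Mcts2, held 57.4, 58.6 and 55.4 CPM in Dnmt3a1-/- and 59.5, 63.6 and 67.5 CPM in wild type (-0.16 ± 0.07, adjusted p = 0.13; 0.046 with libraries of the same number paired). Pairing by number raised the count of called imprinted genes from 13 to 17, the added ones being Slc22a18, H13, Grb10 and Ppp1r9a. Whether counting used strand is not stated, so reads of a nested or antisense gene and its partner, such as Airn and Igf2r or Mest and Copg2, may be shared.

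The wild type series differed from each other at some imprinted genes, which bears on the choice of control. Across the 8 wild type cortex libraries the highest CPM was 2.14 times the lowest for Ndn, 2.09 times for Atp10a, 1.82 times for Nap1l5 and 1.53 times for Impact, against 1.25 times for Sgce and 1.29 times for Peg3. In 13 of the 39 tested genes the Dnmt3a1-/- cortex libraries lay entirely above or below all 8 wild type libraries, beside 20.4% of all genes. These 13 included 10 of the 13 called genes, and the exceptions were Ndn, Nap1l5 and Ube3a. The other 3 were Slc22a18, Grb10 and Nap1l4. Peg3, Sgce, Mest, Sfmbt2 and Atp10a kept direction and call in each of the 12 alternative analyses run.

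In Dnmt3a1-/- hippocampus 2 of the 42 imprinted genes tested changed, Peg3 upward and Sgce downward, beside 2.52% of all genes (1.69% higher, 0.827% lower). Calcr, Phlda2 and Slc22a18 were too low to be tested. The 13 genes called in cortex had the same sign in hippocampus in 12 cases, beside 94% of all 2713 genes called in cortex and tested here. The exception was Ube3a, at 69.3, 62.8 and 76.9 CPM in Dnmt3a1-/- and 53.2, 70.8 and 74.2 CPM in wild type. Cortex and hippocampus share no library. Ddc held 21.6, 26.1 and 20.9 CPM in Dnmt3a1-/- hippocampus and 18.1, 17.6 and 12.9 CPM in wild type, without overlap (log2 fold change 0.48 ± 0.14, edgeR adjusted p = 0.082). Sfmbt2 held 5.72, 4.65 and 4.39 CPM in Dnmt3a1-/- hippocampus and 4.26, 2.97 and 3.48 CPM in wild type. Cdkn1c held 6.69, 10.7 and 6.71 CPM in Dnmt3a1-/- hippocampus and 6.34, 4.93 and 6.07 CPM in wild type. Neither overlapped, and each had an edgeR adjusted p of 0.25. In all, groups did not overlap for 10 of the 42 tested, or 23.8%, near the 22.3% of all genes. Groups without overlap were also seen for Grb10, at 28.6, 31.9 and 25.2 CPM in Dnmt3a1-/- hippocampus and 22.2, 22.7 and 23.8 CPM in wild type (0.29 ± 0.10), and for Atp10a, at 35.6, 38 and 39.9 CPM in Dnmt3a1-/- and 26.7, 33.4 and 35.1 CPM in wild type (0.23 ± 0.11). Mkrn3 held 3.08, 2.6 and 2.97 CPM in Dnmt3a1-/- hippocampus and 2.54, 2.24 and 1.71 CPM in wild type, and Asb4 1.5, 1.78 and 1.64 CPM in Dnmt3a1-/- and 1.38, 1.01 and 1.16 CPM in wild type, with adjusted p of 0.36 and 0.37. Snrpn, a paternally expressed splicing protein gene measured in hippocampus, held 384, 361 and 402 CPM in Dnmt3a1-/- and 349, 358 and 398 CPM in wild type (0.03 ± 0.10). Kcnq1ot1, the paternal RNA of the Kcnq1 domain, differed by 0.06 ± 0.18 and the non-coding Peg13 by -0.25 ± 0.10.

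Both hippocampal calls were fragile. Peg3 missed the threshold when any of the 6 libraries was left out, with adjusted p between 0.051 and 0.16 and a log2 fold change of 0.32 to 0.46. Sgce kept its call without wild type library 1 or mutant library 1, and missed it without each of the other 4, at adjusted p between 0.077 and 0.10 and log2 fold changes of -0.57 to -0.52. Mutant library 3, whose choroid plexus sum of 63.1 CPM was below all wild type libraries, held 273 CPM of Peg3 and 17 CPM of Sgce, both outside the wild type ranges. This is 1 library, and the part of choroid plexus RNA in the hippocampal calls was not tested. The effect of Dnmt3a1-/- in hippocampus minus that in cortex passed for none of 40 imprinted genes, nor for any of 15433 genes (0%), and 1 of the 40 had an unadjusted p under 0.05, beside 5.03% of all genes. DESeq2 called 0 of the 40. For Peg3 this difference was -0.10 ± 0.11 and for Sgce 0.00 ± 0.15 on the log2 scale.

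In neuron nuclei labelled Dnmt3a1-/- none of 38 imprinted genes tested by edgeR passed, beside 0.246% of all genes, and 1 had an unadjusted p under 0.05, beside 8.98% of all genes. DESeq2 also called 0. That gene was Rasgrf1, with 403 and 326 CPM in the nuclei labelled Dnmt3a1-/- and 247 and 272 CPM in wild type nuclei (log2 fold change 0.49 ± 0.15, adjusted p = 0.26). Peg3 held 1440 and 1420 CPM in the nuclei labelled Dnmt3a1-/- and 1170 and 1240 CPM in wild type nuclei without overlap (0.25 ± 0.16, adjusted p = 0.71). With 2 libraries a group, 38.5% of all genes did not overlap, and 7 of the 38 imprinted genes (18.4%). Sgce held 23.1 and 24.9 CPM in the nuclei labelled Dnmt3a1-/- and 24.4 and 25.1 CPM in wild type nuclei (-0.04 ± 0.15). The effect on Sgce in nuclei minus that in cortex was 0.56 ± 0.14 and did not pass (edgeR adjusted p = 0.092; 0.049 without the filter on low counts), and none of 40 imprinted genes passed this test, beside 0.341% of all genes. Of these 40, 11 had an unadjusted p under 0.05, beside 13.8% of all genes, and DESeq2 called 0. Of the 13 genes called in Dnmt3a1-/- cortex, 9 had the same sign in these nuclei, with Ndn, Ube3a, Cdkn1c and Ddc opposite, beside 71.9% of all genes called in cortex. Since Dnmt3a did not follow the label of these nuclei, a direction drawn from it is uncertain.

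In Dnmt3a1_delta_N cortex none of 39 imprinted genes tested passed with edgeR, nor any of 15881 genes (0%), and 3 of the 39 had an unadjusted p under 0.05, beside 7.98% of all genes. DESeq2 called 0 of them as well. Mest was at 24.6, 31.5 and 27.1 CPM in Dnmt3a1_delta_N and 34.5, 34.0 and 38.5 CPM in the n-numbered wild type, without overlap (log2 fold change -0.35 ± 0.10, edgeR adjusted p = 0.46). Sgce was at 24.9, 27.4 and 24.7 CPM in Dnmt3a1_delta_N and 29.3, 28.2 and 29.4 CPM in wild type, also without overlap (-0.16 ± 0.07, adjusted p = 0.62). Cdkn1c held 9.30, 11.1 and 10.6 CPM in Dnmt3a1_delta_N and 6.26, 7.97 and 9.29 CPM in wild type (0.42 ± 0.15, adjusted p = 0.57). The choroid plexus sums of these libraries were 959, 713 and 87.3 CPM in Dnmt3a1_delta_N and 85.8, 415 and 37.1 CPM in wild type, and their part was not tested. Sfmbt2 held 3.11, 3.06 and 3.69 CPM in Dnmt3a1_delta_N and 2.84, 2.62 and 2.27 CPM in wild type (0.36 ± 0.16, adjusted p = 0.63). Airn held 0.778, 0.862 and 0.73 CPM in Dnmt3a1_delta_N and 0.421, 0.531 and 0.658 CPM in wild type (0.59 ± 0.27), and Magel2 1.6, 1.52 and 1.31 CPM in Dnmt3a1_delta_N and 1.29, 1.16 and 1.02 CPM in wild type (0.36 ± 0.20). Commd1 (0.08 ± 0.08) was just above and Inpp5f (-0.06 ± 0.06) just below the wild type libraries. Groups did not overlap for 8 of the 39, beside 12.8% of all genes. Peg3 overlapped, with 200, 158 and 136 CPM in Dnmt3a1_delta_N and 178, 157 and 142 CPM in wild type (0.07 ± 0.13). The ratio of Peg3 to Usp29 counts, given above, did not overlap, and that of Sgce to Peg10 counts did.

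Of the 13 genes called in Dnmt3a1-/- cortex, 12 had the same sign in Dnmt3a1_delta_N cortex, which was compared with other wild type libraries, and Ndn had the opposite sign. Among all genes called in Dnmt3a1-/- cortex 86.5% had the same sign there. The effect of Dnmt3a1_delta_N minus that of Dnmt3a1-/- passed for none of the 39 (0.103% of all genes), with 7 at an unadjusted p under 0.05, beside 11.4% of all genes. It was -0.42 ± 0.16 for Peg3 (edgeR adjusted p = 0.34) and 0.44 ± 0.11 for Sgce (adjusted p = 0.15). With libraries of the same number paired, both passed, Peg3 at -0.43 (adjusted p = 0.0098) and Sgce at 0.44 (adjusted p = 0.029), and DESeq2 called Sgce alone (adjusted p = 0.050). Without Dnmt3a1_delta_N library 1, Peg3 also passed in edgeR (-0.58, adjusted p = 0.031).

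**Figure D4:**
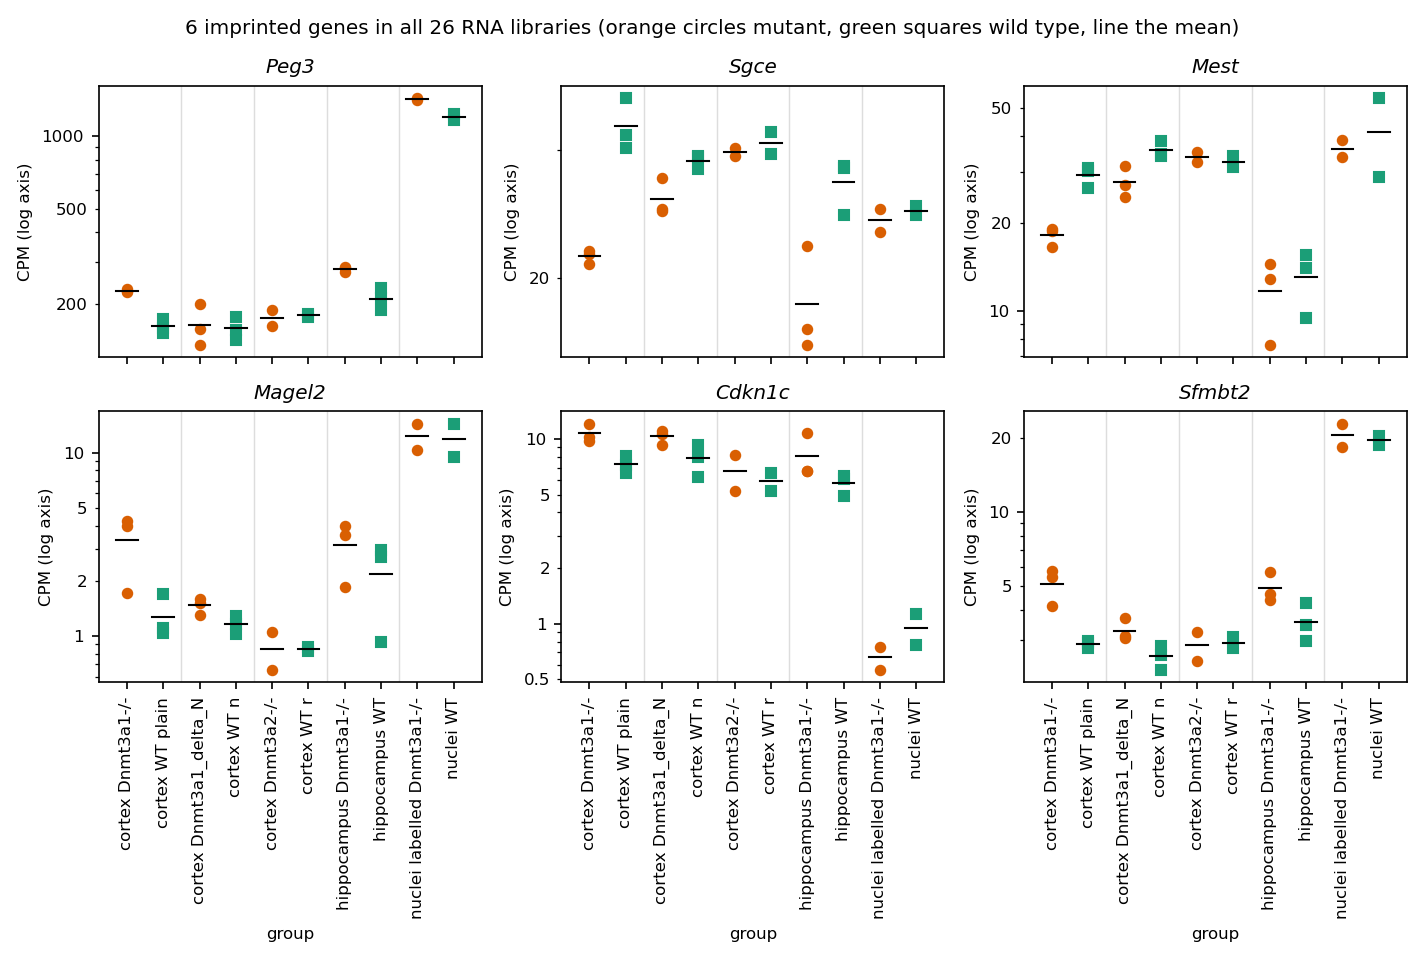
CPM (log axis) of Peg3, Sgce, Mest, Magel2, Cdkn1c and Sfmbt2 in all 26 libraries by group; orange circles are mutant, green squares wild type, lines are means and each mutant stands left of its wild type. Peg3 at 226 to 231 CPM and Sgce at 20.9 to 21.8 CPM in Dnmt3a1-/- cortex lie apart from all 8 wild type cortex libraries, while nuclei hold far more Peg3, Magel2 and Sfmbt2 and less Cdkn1c.

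In Dnmt3a2-/- cortex, with 2 libraries a group, none of 38 imprinted genes tested passed with edgeR, beside 0.00628% of all genes (1 gene), and 4 of the 38 had an unadjusted p under 0.05, beside 2.87% of all genes. Ndn came closest, at 125 and 128 CPM in Dnmt3a2-/- and 83.0 and 87.4 CPM in the r-numbered wild type (log2 fold change 0.56 ± 0.09, edgeR adjusted p = 0.19). DESeq2 called it (adjusted p = 0.0011), but the n-numbered wild type libraries held 87.1, 132 and 151 CPM of Ndn. Igf2 stood at 60.3 and 108 CPM in Dnmt3a2-/- and 45.8 and 53.5 CPM in wild type (0.74 ± 0.33, edgeR adjusted p = 1), beside meningeal marker sums of 97.2 and 124 CPM in Dnmt3a2-/- and 53.5 and 84.6 CPM in wild type. Nnat held 59.5 and 62.6 CPM in Dnmt3a2-/- and 44.3 and 49.8 CPM in wild type (0.37 ± 0.09, adjusted p = 0.90). Peg3 held 189 and 163 CPM in Dnmt3a2-/- and 177 and 183 CPM in wild type, and Sgce 30.2 and 29.4 CPM in Dnmt3a2-/- and 29.6 and 31.7 CPM in wild type. Both overlapped between the groups. Of the 13 genes called in Dnmt3a1-/- cortex, 8 had the same sign in Dnmt3a2-/- cortex, beside 74% of all genes called in Dnmt3a1-/- cortex. Groups did not overlap for 12 of the 38, beside 27.4% of all genes.

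Of 25 genes that set or keep imprints, 22 were tested in Dnmt3a1-/- cortex, where 4 rose and 1, Dnmt3a itself, fell, with a median log2 fold change of 0.08. The share called, 22.7%, was near the 17.9% of all genes. Zfp57, the zinc finger protein that guards imprints, held 15.8, 14.9 and 13.5 CPM in Dnmt3a1-/- cortex and 8.71, 10.4 and 10.2 CPM in wild type (log2 fold change 0.59 ± 0.11, edgeR adjusted p = 0.0033), but the n-numbered wild type libraries reached 16.3 CPM. In hippocampus Zfp57 held 26.1, 21.2 and 27.5 CPM in Dnmt3a1-/- and 18.3, 16.3 and 18.4 CPM in wild type, without overlap (0.49 ± 0.12, adjusted p = 0.056). Tet2, an enzyme that oxidises methylated cytosine, held 34.3, 38.3 and 36.8 CPM in Dnmt3a1-/- cortex and 26.5, 30.1 and 22.9 CPM in wild type (0.46 ± 0.09, adjusted p = 0.0056), above all 8 wild type cortex libraries. Arid4b, a chromatin protein known at the Prader-Willi control region, and the histone methyltransferase gene Ehmt2 rose by 0.29 ± 0.08 and 0.25 ± 0.08. Of 30 further genes reported as imprinted in some tissues, 28 were listed in the cortex files and 21 tested in Dnmt3a1-/- cortex. None rose and 5 fell, and their median log2 fold change was -0.20. The share called was 23.8%, beside 17.9% of all genes (8.91% lower). They were the cholesterol synthesis gene Dhcr7 (-0.67 ± 0.08), the phosphodiesterase gene Pde4d (-0.50 ± 0.08), the actin nucleator gene Cobl (-0.41 ± 0.10), the sialic acid acetyltransferase gene Casd1 (-0.33 ± 0.08), which lies beside Sgce, and the Argonaute gene Ago2 (-0.28 ± 0.08).

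The wild type libraries showed how the imprinted genes are distributed between neuron nuclei and whole cortex. Of the 39 genes tested 14 were higher and 17 lower in nuclei, a share called of 79.5% beside 79.4% of all genes (39.7% in each direction). Paternally expressed genes were higher in 9 cases and lower in 4, and maternally expressed genes higher in 3 and lower in 11. Magel2 stood at 9.43 and 14.4 CPM in wild type nuclei and at 0.833 to 1.69 CPM (median 1.07) in the 8 cortex libraries, a log2 fold change of 3.15 ± 0.20 (edgeR adjusted p = 5.4e-09). Peg3 stood at 1170 and 1240 CPM in nuclei and at a median of 167 CPM in cortex (2.60 ± 0.09, adjusted p = 2.5e-11), while Usp29, which shares its promoter region, did not differ beyond error (-0.02 ± 0.20). Sfmbt2 (2.56 ± 0.11), Zdbf2 (1.83 ± 0.18) and Grb10 (1.62 ± 0.09) were also higher. Igf2 stood at 0.938 and 1.07 CPM in nuclei against a median of 70.4 CPM in cortex, a log2 fold change of -6.55 ± 0.62 (adjusted p = 2.8e-06). Ddc (-3.73 ± 0.31), Cdkn1c (-3.17 ± 0.25), Cd81 (-2.17 ± 0.12) and Ube3a (-1.41 ± 0.15) were lower. Meningeal marker sums were 7.39 and 8.33 CPM in these nuclei. Cell type, the nuclear compartment and the preparation cannot be told apart.

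**Figure D5:**
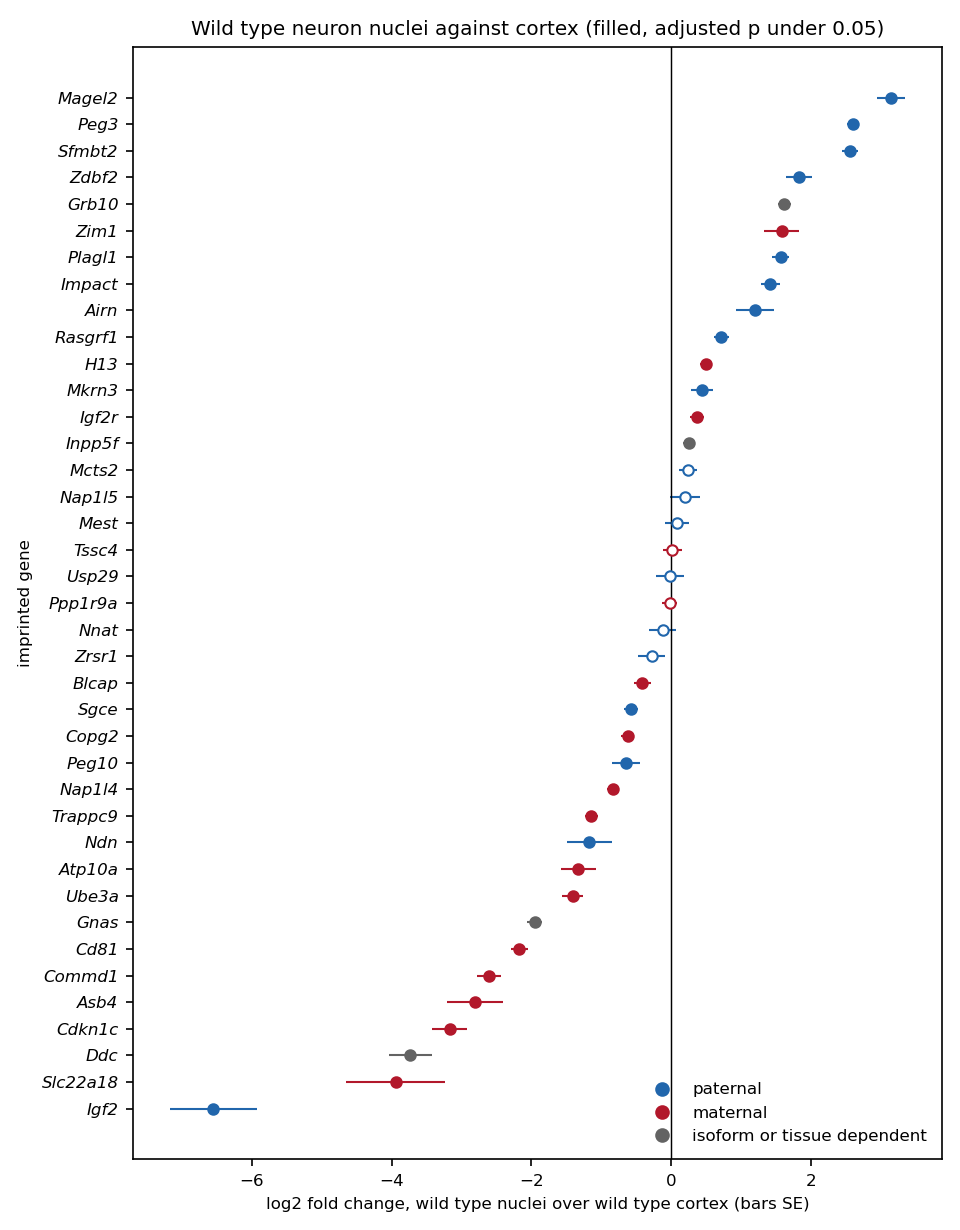
Log2 fold change of wild type neuron nuclei (2 libraries) over wild type cortex (8 libraries) for the 39 imprinted genes tested, with SE bars; blue is paternal, red maternal and grey dependent on isoform or tissue, and filled points have an adjusted p under 0.05. Magel2 at 3.15 and Peg3 at 2.60 lie at the upper end, Igf2 at -6.55 at the lower end.

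Between wild type hippocampus and wild type cortex 20 of 39 imprinted genes differed, 11 higher and 9 lower in hippocampus, beside 42% of all genes (21.5% higher, 20.5% lower). Rasgrf1 held 306, 385 and 358 CPM in hippocampus and 112 to 147 CPM (median 139) in cortex (log2 fold change 1.38 ± 0.10, edgeR adjusted p = 6.8e-08). Nnat (1.37 ± 0.14), Zim1 (2.53 ± 0.20) and Usp29 (1.55 ± 0.16) were higher, and Mest (-1.32 ± 0.14) and Nap1l5 (-0.87 ± 0.19) lower. Zrsr1 stood at 528, 776 and 438 CPM in hippocampus and 26.6 to 43.2 CPM in cortex, and Igf2 at 2.07, 1.35 and 1.02 CPM in hippocampus and 45.8 to 135 CPM in cortex. The meningeal marker sum was 153 to 158 CPM in the hippocampus libraries, inside the 53.5 to 224 CPM of cortex. The hippocampus files were counted on another annotation, in which all 42 shared imprinted genes have a different identifier version, so tissue and gene model cannot be told apart in these differences. Comparisons within a tissue do not carry this limit.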

How the data were processed

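Counts of 26 RNA libraries were analysed, and the other 49 of the 75 samples (methylation, chromatin immunoprecipitation) were not analysed here. The deposited values are counts of reads per gene, 1 file per library, with no normalization by the authors recorded. Per the labels' protocols, the library kit selects mRNA and keeps strand, and RNA and DNA came from the same material. Per the submitters' processing notes, STAR 2.5.4a, HTSeq 0.11.0 and build mm9 were used. Annotation release and strand setting are not given in the sources used here. Between 21.14% and 36.97% of reads lay in lines naming no gene and were left out. Symbols came from a supplied name table, matched for 32620 identifiers of the cortex and nuclei files and 55394 of the hippocampus files, and the 32601 shared identifiers were used across tissues.

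Each comparison was fitted in edgeR 4.0.16 (R 4.3.3) with robust quasi-likelihood tests after filterByExpr and TMM scaling, with Benjamini-Hochberg adjustment over all genes tested and calls under 0.05. Standard errors (SE) divide the absolute log2 fold change by the root of the F statistic. CPM is the count over the library's gene total. Each fit was tested on simulated counts. Count ratios were compared by exact permutation. The alternatives were RLE factors, DESeq2 1.42.0, no low-count filter, a replicate block, leaving out each library and other wild type sets. Leaving out the choroid plexus extremes together was added after seeing the data. The main tests were unpaired. Same-numbered libraries deviated together in Dnmt3a1-/- cortex (correlations 0.237, 0.376 and 0.184) and in Dnmt3a1_delta_N cortex (0.373, 0.24 and 0.419). The replicate block is therefore given as pairing there, as an alternative beside the unpaired result. The members, gene lists and tests were chosen with earlier results of these data known. Values of each library are given for called genes, for most uncalled genes without overlap between groups in cortex or hippocampus and for domain partners of called genes. The promoter rule was extended to called genes with the hexamer, and the cAMP response element was added, after values and sequences were seen.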

Additional observations from a re-analysis of the deposited data

How the results depend on the processing

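The count of imprinted genes called in Dnmt3a1-/- cortex was 13 with RLE factors and with DESeq2, 15 without the filter, 17 with the replicate block and 12 against all 8 wild type libraries. It ran from 8 to 13 when 1 library was left out, with 8 without wild type library 2 or without mutant library 2, and was 8 without the choroid plexus extremes. Against all 8 wild type libraries Ndn had a log2 fold change of -0.04. In hippocampus, where same-numbered libraries did not all deviate together, the count was 3 with DESeq2, 5 without the filter, 0 with the replicate block and 0 to 4 when 1 library was left out: 4 without wild type library 1, 0 without wild type library 2 or mutant library 2 or 3. For Dnmt3a2-/- cortex it was 1 with DESeq2, 2 without the filter (Ndn and Atp10a), 2 with the replicate block (Ndn and Igf2), and 0 to 2 when 1 library was left out, with 2 without either mutant library. For Dnmt3a1_delta_N cortex it was 0 in each alternative and each left-out library (0 to 0). For the nuclei labelled Dnmt3a1-/- it was 2 with the replicate block (Rasgrf1 and Peg10) and 0 without any 1 library. The effect in nuclei minus cortex called 4 without the filter (Sgce, Ddc, Calcr and Magel2), 2 with the block (Sgce, adjusted p = 0.022, and Ube3a, 0.042) and 0 to 2 when 1 library was left out. The effect of Dnmt3a1_delta_N minus Dnmt3a1-/- called 1 with DESeq2, 2 with the block and 0 to 1 when 1 library was left out, and that in hippocampus minus cortex 0 throughout.

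Wild type hippocampus over cortex called 15 to 22 and nuclei over cortex 28 to 31 when 1 library was left out. Without wild type nuclei library 2, Mest in nuclei over cortex had a log2 fold change of -0.41, and 0.45 without library 1, beside 0.08 with both. Of 4917 recomputed values of single genes, 4790 kept direction and side of the threshold, 67 lost and 58 gained a call and 2 reversed. Without the filter the median of all genes in nuclei over cortex moved to -0.24. The cause of each of these changes was not tested.

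Depth limits Calcr, H19, Phlda2 and Slc22a18, which hold few counts. With 2 or 3 libraries a group, a gene that missed the threshold is not shown to be equal between groups.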
